A study of Mus musculus with 2 samples.

Results

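Open chromatin was described at 10 genes of growth control, 6 of the insulin-like growth factor (IGF) axis (Igf1, Igf2, Igf1r, Igf2r, Igfbp5 and Pappa2) and 4 regulators of body size (Igf2bp2, Hmga2, Lin28b and Plag1). Peaks were taken when they lay inside one of these genes or within 50 kb of it, in the GENCODE mouse release 21 annotation of the mm10 genome. This gave 38 of the 28257 peaks of the proximal femur and 37 of the 27958 peaks of the distal femur. Merging peaks that overlapped by at least 1 bp gave 44 regions, of 32388 in both lists together. The region farthest from its gene lay 48994 bp from Igf2bp2, and the nearest region left out lay 52061 bp from Hmga2.

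ATAC-seq, in which a transposase cuts accessible DNA and tags it for sequencing, was carried out on the proximal and distal cartilaginous ends of femurs from E15.5 embryos of FVB mice, without a genetic change or treatment. Each end was cut away from the bony shaft and pooled within 1 litter (8 animals on average), 50000 cells were used per reaction, and the authors combined 2 biological replicates per end into 1 list of reproducible peaks. The tissue held all zones of the growth plate with the perichondrium around it, so the lists describe a mixture of cells, in which fewer cells of a type and less open chromatin per cell cannot be told apart. The FVB reads were placed on mm10, which is the C57BL/6J sequence. The lists hold positions without a height or a p-value, so no value below has a replicate error, no test between the ends was possible, and "single-end" means only that a peak of one list overlapped no peak of the other.

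The IGF ligands Igf1 and Igf2 promote growth through the receptor tyrosine kinase Igf1r, while Igf2r takes up Igf2 and carries it to lysosomes. IGF-binding proteins such as Igfbp5 hold the ligands in the tissue, and the protease Pappa2 cuts some of these binding proteins and so sets the ligands free. Igf2bp2 is an RNA-binding protein of the Igf2 mRNA-binding family, Hmga2 an architectural chromatin protein, Lin28b an RNA-binding protein that blocks the maturation of let-7 microRNAs, and Plag1 a zinc finger transcription factor that can activate Igf2. Changes in each of these regulators are known to alter body size in mammals.

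Labels and tissue were compared by means of marker genes. Over all autosomal protein-coding genes, 56.4% had a proximal and 57.7% a distal peak within 1 kb of a start site, so counts in sets this small are a description. Of 9 chondrocyte genes, 7 had a proximal and 8 a distal peak there, among them Sox9, Col2a1 and Acan in both lists. None of 3 osteoblast genes (Sp7, Bglap, Ibsp), 3 muscle genes (Myod1, Myog, Myf5) and 2 blood genes (Ptprc, Hbb-bt) had one, and Gata1 on chromosome X could not be scored because the lists hold autosomes alone. Endothelium, epithelium and neurons were represented by 3 genes each, of which 1 each (Kdr, Epcam and Snap25) had a peak at a start site in both ends, and Krt5 of epithelium had no region within 50 kb. The part of such cells in the results at the members was not tested.

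Promoter peaks were more frequent at the size regulators than at the IGF axis. All 4 size regulators had a peak within 1 kb of an annotated start site in both ends, against 2 of 6 IGF axis genes in the proximal femur (Igf1r and Igf2r) and 1 of 6 in the distal femur (Igf1r). Over all 20807 autosomal protein-coding genes, 56.4% had such a proximal peak and 57.7% a distal one. With protein-coding start sites alone, Igf2r and Lin28b drop out, which leaves 3 of 4 size regulators and 1 of 6 IGF axis genes (Igf1r) in each end. With so few genes per group the difference is a description, and no test was made. The bases in front of the start sites are shown first, since their CG content can be compared by eye. Each line gives, for 9 members, 150 bases that end just before the start site or the first exon, on the strand of the gene, with every CG dinucleotide in capitals. Igf2, Igf1r, Igf2r, Igfbp5, Igf2bp2 and Hmga2 follow the RefSeq promoter table (GRCm38.p6), and the others the genome sequence before the GENCODE start site.

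These 4 stretches lay within peaks of both lists.
Igf1r, chr7:67952107-67952256, plus strand: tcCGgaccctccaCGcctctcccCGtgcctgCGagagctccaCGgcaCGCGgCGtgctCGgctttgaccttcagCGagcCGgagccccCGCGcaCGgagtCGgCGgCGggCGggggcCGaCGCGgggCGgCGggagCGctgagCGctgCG
Igf2bp2, chr16:22163300-22163449, minus strand: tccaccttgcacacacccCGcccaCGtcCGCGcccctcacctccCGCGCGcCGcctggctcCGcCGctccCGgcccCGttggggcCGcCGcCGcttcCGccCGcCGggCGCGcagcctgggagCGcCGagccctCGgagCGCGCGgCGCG
Hmga2, chr10:120476470-120476619, minus strand: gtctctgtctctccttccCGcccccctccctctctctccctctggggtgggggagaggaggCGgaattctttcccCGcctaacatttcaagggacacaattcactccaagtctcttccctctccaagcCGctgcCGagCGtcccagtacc
Lin28b, chr10:45486396-45486545, minus strand: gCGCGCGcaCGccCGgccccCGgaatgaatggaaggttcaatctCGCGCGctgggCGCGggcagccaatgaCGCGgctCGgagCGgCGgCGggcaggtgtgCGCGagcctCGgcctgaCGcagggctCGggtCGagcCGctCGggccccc

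The 5 stretches that overlapped no peak were these.
Igf1, chr10:87858115-87858264, plus strand: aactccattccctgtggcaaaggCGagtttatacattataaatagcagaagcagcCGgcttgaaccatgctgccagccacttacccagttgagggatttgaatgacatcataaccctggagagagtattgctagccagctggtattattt
Igf2, chr7:142666817-142666966, minus strand: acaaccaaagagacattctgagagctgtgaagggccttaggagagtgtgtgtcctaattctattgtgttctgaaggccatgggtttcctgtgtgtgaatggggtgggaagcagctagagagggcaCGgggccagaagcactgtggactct
Igf2r, chr17:12769707-12769856, minus strand: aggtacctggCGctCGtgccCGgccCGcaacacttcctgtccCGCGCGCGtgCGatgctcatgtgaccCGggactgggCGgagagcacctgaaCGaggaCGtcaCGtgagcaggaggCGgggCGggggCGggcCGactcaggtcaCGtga
Igfbp5, chr1:72874885-72875034, minus strand: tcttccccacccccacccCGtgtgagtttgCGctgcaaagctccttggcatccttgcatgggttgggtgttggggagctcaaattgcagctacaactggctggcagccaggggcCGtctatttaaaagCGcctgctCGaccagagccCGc
Pappa2, chr1:158958368-158958517, minus strand: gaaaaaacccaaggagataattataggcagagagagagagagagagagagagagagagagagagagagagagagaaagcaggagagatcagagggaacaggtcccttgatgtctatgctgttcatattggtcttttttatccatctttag

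The stretches under a peak were dense in CG at 3 of these 4 genes, with 26 in Igf1r, 28 in Igf2bp2 and 25 in Lin28b. The Hmga2 stretch, equally covered by peaks, held 6 CG and long runs of pyrimidines. Of the stretches without a peak, Pappa2 held 0 CG, Igf2 held 1, Igf1 held 2 and Igfbp5 held 6. Among these stretches Igf2r was the exception, with 19 CG and no peak in either list. The Igf2 stretch lies before the most upstream of its RefSeq starts, and its other promoters, some of them richer in CG, are described below. The Lin28b stretch lies before the start of a noncoding transcript at 45486395, and its protein-coding start at 45470201 had no peak within 1 kb. The Igf2r and Pappa2 stretches stand at protein-coding starts. The contrast in CG thus depends in part on which start was shown.

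RefSeq promoters (250 bases before to 50 after a start) were found for 9 of the 10 members, with 12 entries in all. Their CpG observed over expected, the number of CG divided by the number that the C and G content would give, was 1.11 for Igf1r, 1.09 for Igf2bp2 and 0.54 for Hmga2, whose promoters had peaks in both lists. It was 0.31 for Igf1, 0.42 for Igfbp5 and 0.11 for Pappa2, which had none. Over all 19174 RefSeq promoters on autosomes, 56.9% had a peak within 1 kb in either list. The share was 89.6% at a ratio of 0.75 or more and 38.8% below it, and Igf1, Igfbp5 and Pappa2 belonged to the class below it, as did Hmga2.

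At a ratio of 0.75 or more, the promoters of Igf1r and Igf2bp2 had a peak, and 3 others, all of the IGF axis, had none. Over all promoters in that class, 10.4% had none. The 3 were the Igf2r promoter (0.91) and 2 of the 4 Igf2 promoters (0.90 and 0.79), while the other Igf2 promoters had 0.25 and 0.10. The Lin28b entry in RefSeq stands at the internal protein-coding start, with a ratio of 0.71 and no peak within 1 kb.

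**Figure D1:**
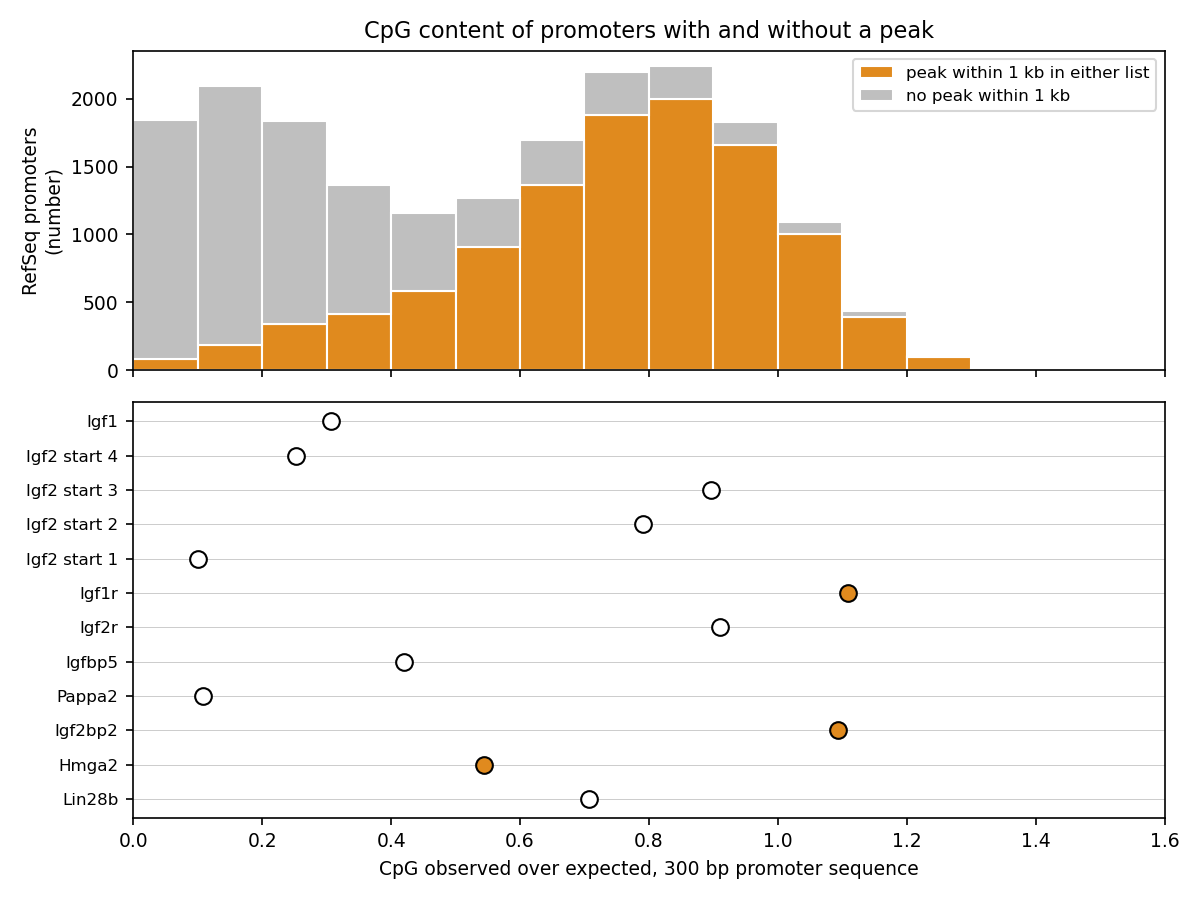
The upper panel counts RefSeq promoters by CpG observed over expected, split by whether a peak of either list lay within 1 kb, and the lower panel places the 12 promoters of the members on the same axis, filled where a peak was present. Igf1r, Igf2bp2 and Hmga2 are filled, and Igf2r at 0.91 is open; Igf2 starts are numbered along the gene in the direction of transcription.

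The ligands were the only members without a peak in their windows. Neither Igf1 (chr10:87858265-87937042, plus strand) nor Igf2 (chr7:142650766-142666816, minus strand) had a peak of either end inside the gene or within 50 kb, as was the case for 13.6% of all genes. None of the 8 annotated start sites of Igf1 and none of the 9 of Igf2 had a peak within 1 kb. Igf1 is the main growth hormone-dependent ligand after birth, and Igf2 the main fetal one.

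The stretch without any region that contains Igf1 was 356 kb long, and Igf1 was the only protein-coding gene inside it. The nearest region to the left ended 205354 bp before the gene, and the nearest to the right began 71443 bp past it, both with peaks in both lists. The stretch around Igf2 was 396 kb and also held Ins2 (an insulin gene), Th (tyrosine hydroxylase), Gm49394 and the noncoding gene H19, which is imprinted together with Igf2. A distal-only region lay 79773 bp beyond the 3′ end of Igf2, and a region of both lists lay 300399 bp upstream. Of the 32369 stretches between neighbouring regions, with a median of 34.0 kb, 2.86% were at least as long as that around Igf1 and 2.42% at least as long as that around Igf2. These shares count each stretch once. A long stretch takes up more of the genome than a short one, so they are not shares of genes, of which 13.6% had no region within 50 kb. Repeats, where short reads are harder to place, took 22.0% of the Igf1 window and 13.0% of the Igf2 window, against 19.9% to 39.4% in the windows of the other 8 members, and the part of repeats was not tested. A missing peak says that none was called reproducibly at a depth that the lists do not give, not that the DNA was closed.

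Igf1r, the signalling receptor (chr7:67952827-68233668, plus strand), had 4 proximal and 7 distal peaks in 7 regions. Its promoter region was the widest of all member regions, 1911 bp in the proximal and 1926 bp in the distal list. Its right edge lay 354 bp and 353 bp before the GENCODE start site, and it covers the RefSeq start at 67952257. In its introns 3 regions were shared, at 68021521-68022400, 68128898-68129800 and 68153277-68153844. Proximal widths there were 643, 857 and 520 bp and distal widths 880, 850 and 544 bp.

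All 3 single-end regions of Igf1r were distal, and all were in the part of the locus around its start. They lay 41664 bp upstream (67910509-67911163), 28052 bp upstream (67924232-67924775) and 9101 bp inside the gene (67961928-67962220). The nearest proximal peaks were 39400, 25788 and 9455 bp away, so none of them was the shifted edge of a shared peak. The last of them, the narrowest distal peak of the members, is shown whole because it is a call of 1 list in an intron of the receptor. Of the 9 letter strings searched, it held only that for NF-Y (CCAAT), in capitals. Other forms of the same motifs, CTCF included, were not searched.
Igf1r distal-only peak, chr7:67961928-67962220, plus strand: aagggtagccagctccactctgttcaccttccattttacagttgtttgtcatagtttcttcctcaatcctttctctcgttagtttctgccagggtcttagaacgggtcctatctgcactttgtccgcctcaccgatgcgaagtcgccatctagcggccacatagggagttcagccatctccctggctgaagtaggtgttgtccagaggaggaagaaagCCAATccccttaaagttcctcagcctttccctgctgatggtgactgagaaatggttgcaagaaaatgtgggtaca

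Igf2r, the clearance receptor (chr17:12682406-12769664, minus strand), had 6 proximal and 5 distal peaks in 8 regions, and 5 of these were single-end, the most of any member. In mouse, Igf2r is expressed from the maternal chromosome, and the noncoding RNA Airn, which starts in an intron of Igf2r and runs against it, silences the paternal copy. The start of the protein-coding Igf2r transcript at 12769664 had no peak nearby, the nearest being 11478 bp (proximal) and 13130 bp (distal) upstream. The promoter peak counted for Igf2r was a proximal-only one of 480 bp at 12750663-12751142, over the start of a processed transcript without a coding sequence.

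The start of Airn, by contrast, lay in a region of both lists, 12741112-12741838. Its proximal peak was 394 bp wide and its distal peak 727 bp, the largest difference in width among shared peaks of the members, and the CpG observed over expected of the region was 0.61. The 199 bases between the left edge of that region and the Airn start are printed on the plus strand, on which Airn runs, with CG in capitals.
Upstream of Airn, chr17:12741112-12741310, plus strand: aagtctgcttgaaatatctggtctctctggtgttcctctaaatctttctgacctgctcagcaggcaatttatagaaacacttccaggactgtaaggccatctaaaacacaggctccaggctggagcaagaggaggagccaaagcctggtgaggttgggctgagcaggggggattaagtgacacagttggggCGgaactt
These bases contained 1 CG, so the CG of the region lay almost wholly past the start of Airn.

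The single-end regions of Igf2r came from both lists. Proximal-only regions lay 11478 bp upstream (12781142-12781576), at the internal start above and in an intron (12737986-12738251). Distal-only regions lay 13130 bp upstream (12782794-12783285) and in an intron (12722525-12723061). The 2 upstream regions were 1218 bp apart, 1 from each list. The intronic distal-only region had its nearest proximal peak at 1334 bp, which belonged to a wide region of both lists (12724395-12725752, 1352 and 1349 bp) that overlaps an exon. A further shared region lay in the downstream flank. The narrowest proximal peak of the members, 266 bp in an Igf2r intron, is shown with matches to AP-1 (TGAGTCA), TEAD (GGAATG) and CTCF (the reverse complement GCCACCTTG) in capitals, and 39.8% of its bases are marked as repeats.
Igf2r proximal-only peak, chr17:12737986-12738251, minus strand: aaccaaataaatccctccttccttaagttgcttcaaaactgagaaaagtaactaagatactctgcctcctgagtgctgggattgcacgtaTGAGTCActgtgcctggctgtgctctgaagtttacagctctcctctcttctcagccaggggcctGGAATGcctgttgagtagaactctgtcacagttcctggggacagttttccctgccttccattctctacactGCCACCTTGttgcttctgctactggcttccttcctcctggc

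Igfbp5, a binding protein with high affinity for both ligands (chr1:72857932-72874884, minus strand), had 1 region, shared, and none at its promoter. It lay 10686 bp (proximal, 566 bp wide) and 10661 bp (distal, 624 bp wide) upstream of the start, at 72885545-72886168. The same region falls in the window of the neighbouring binding protein gene Igfbp2. To the other side the nearest region was 145995 bp from the gene.

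Pappa2, the protease (chr1:158711727-158980490, minus strand), had 9 proximal and 7 distal peaks in 9 regions, the most of any member, and none within 1 kb of its 6 annotated start sites. Of the regions 8 were intronic, and the remaining one lay in the downstream flank, nearest to the start of Astn1, a neuronal adhesion gene. Both lists held 6 of the 8 intronic regions, with proximal widths from 489 to 916 bp and distal widths from 440 to 868 bp. The nearest shared region to the protein-coding start lay 4463 bp (proximal) and 4314 bp (distal) inside the gene. The 2 single-end regions were both proximal, 656 bp at 158816413-158817068 and 399 bp at 158935329-158935727, with the nearest distal peaks at 35895 and 12286 bp.

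Igf2bp2 (chr16:22059009-22163299, minus strand) had 5 proximal and 4 distal peaks in 5 regions. The promoter peaks, 1308 bp in the proximal and 1282 bp in the distal list, covered the start at 22163299. Both intronic regions were shared (22108009-22108554 and 22118682-22119445). The region at the far end of the window covered the start of Senp2, a SUMO protease gene, and was shared as well. The only single-end region was proximal, 393 bp wide and 19008 bp upstream.

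Hmga2 (chr10:120361275-120476469, minus strand) had 4 proximal and 5 distal peaks in 5 regions, all inside the gene or at its start. The promoter peaks measured 1590 and 1555 bp. In the introns, 3 shared regions lay 53819, 75841 and 81122 bp past the nearest start site, with proximal widths of 565, 620 and 528 bp and distal widths of 586, 450 and 508 bp. A distal-only peak of 562 bp lay farther along, at 120377243-120377804, with its nearest proximal peak 16839 bp away.

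Lin28b (chr10:45376620-45486395, minus strand) had 3 peaks in each list, all shared, so that no single-end region was seen. The promoter peaks, 1295 and 1206 bp, covered the 2 upstream starts of noncoding transcripts at 45485777 and 45486395. The annotated protein-coding start at 45470201 was 15377 bp from the nearest proximal and 15428 bp from the nearest distal peak. The other regions lay in the downstream flank, 1 of them at the start of Bves, a gene for a membrane protein of muscle.

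Plag1 (chr4:3900996-3938423, minus strand) had 6 proximal and 5 distal peaks in 6 regions. Its promoter region, 1444 bp in the proximal and 1692 bp in the distal list, also covered the start of Chchd7, which is read in the other direction, so the peak cannot be assigned to either gene. A second neighbouring start in the window, that of Mos, a kinase gene of the oocyte, lay 376 bp from a shared region in the downstream flank. In the gene itself 1 shared intronic region was present (3929410-3930194). The only single-end region was proximal, 320 bp wide and 36616 bp upstream, and the gene start nearest to it was that of Gm11808.

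**Figure D2:**
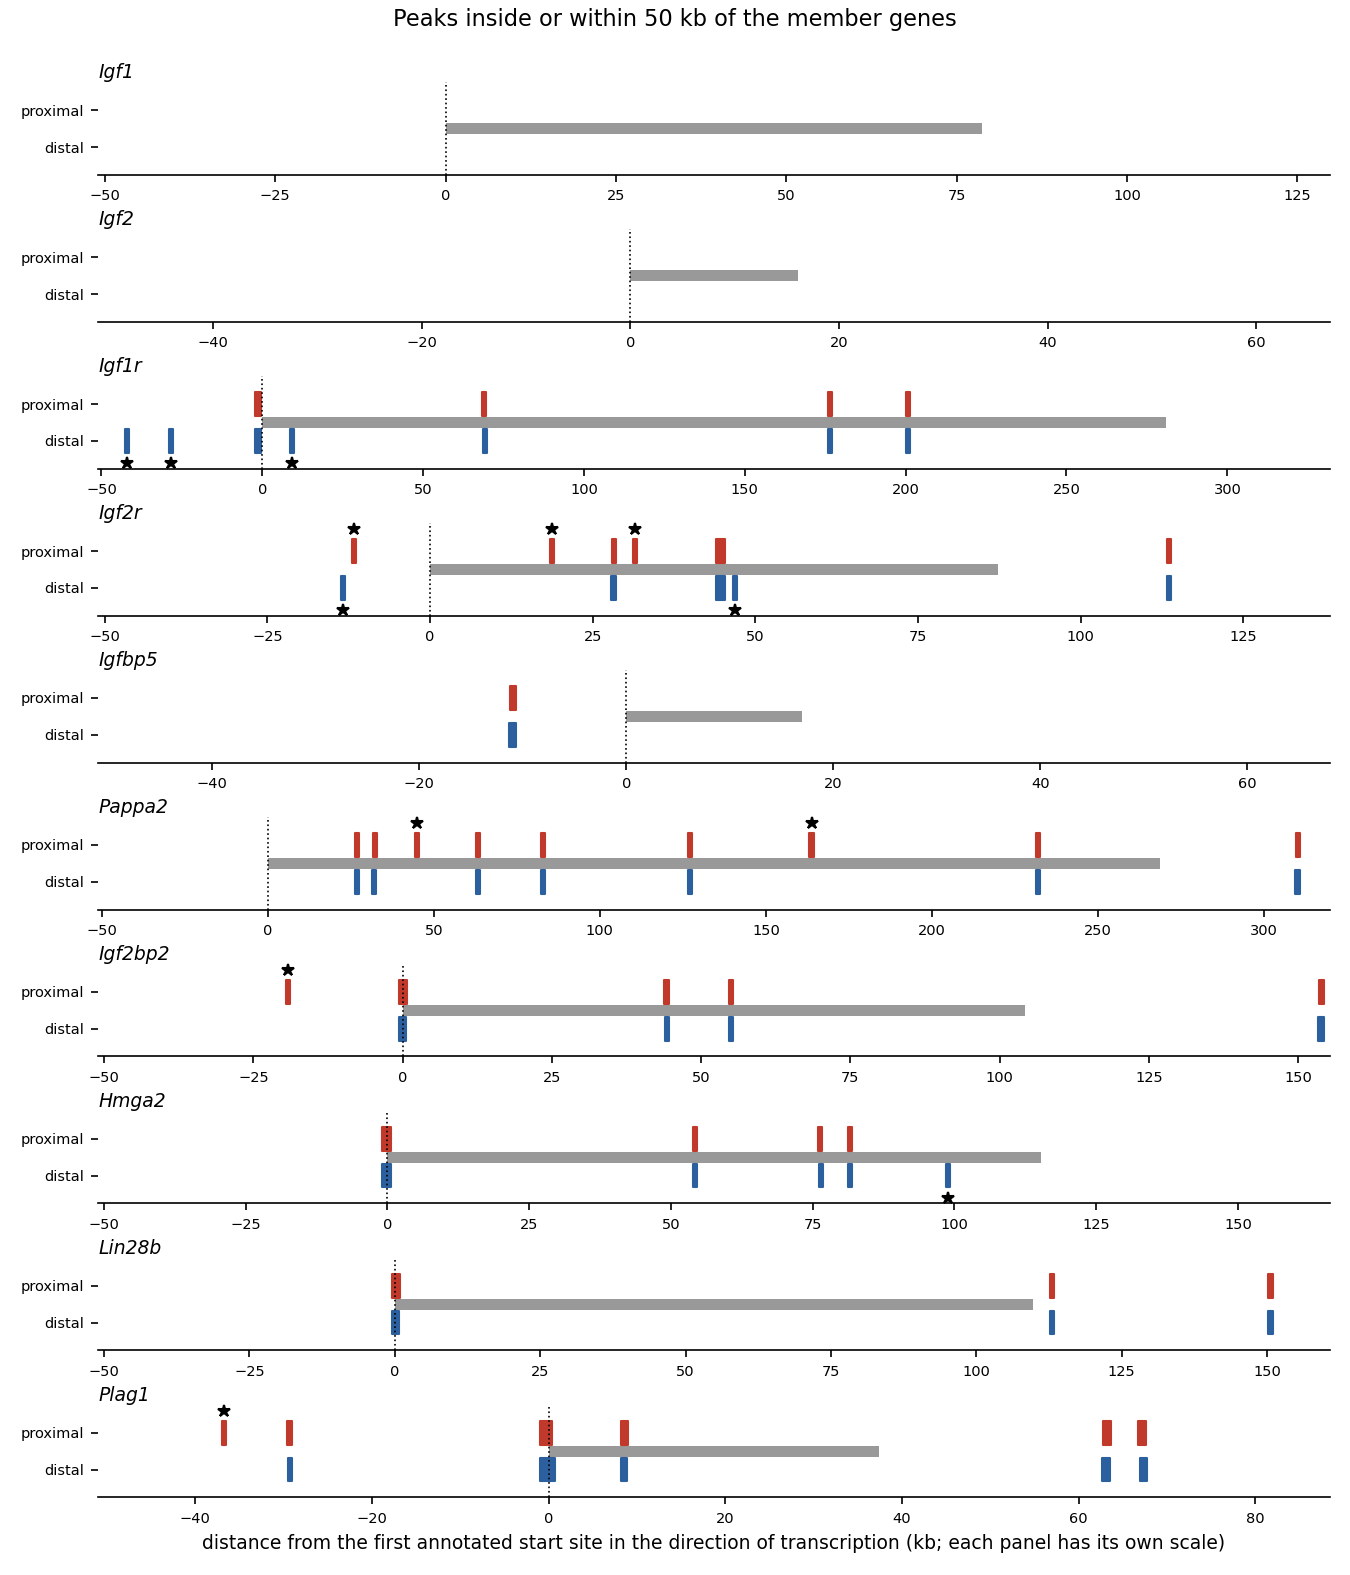
Peaks of the proximal list (red) and the distal list (blue) are drawn along each gene (grey bar) by distance in kb from its first annotated start site, with each panel on its own scale, narrow peaks widened to stay visible, and stars on single-end peaks. Igf1 and Igf2 are empty, the 3 stars of Igf1r are all on the distal track, and the 4 size regulators have paired peaks at or close to position 0.

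By class, 15 of the 25 regions of the IGF axis were intronic, 7 flanking, 2 at a promoter and 1 exonic. The 19 regions of the size regulators were spread more evenly, with 7 intronic, 8 flanking and 4 at a promoter. Promoter regions were thus 8.00% of the regions in the first group and 21.1% in the second, against 20% of gene and region pairs over all genes, so the share of the size regulators was near the background. Intronic regions made up 60.0% and 36.8%, against 11.6% of pairs over all genes. The flanks have a fixed length, so a longer gene gives more room to introns, and Igf1r (281 kb) and Pappa2 (269 kb) are long. The genes behind the 11.6% were not matched for length, and the part of gene length was not tested. Pappa2 alone gave 8 of the 15 intronic regions of the IGF axis.

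Single-end calls were more frequent at the IGF axis than at the size regulators, but counting error was large. They made up 10 of 25 regions (40.0%, 95% Wilson interval 23.4% to 59.3%) against 3 of 19 (15.8%, 5.52% to 37.6%), and the intervals overlap. The intervals cover counting error only and treat regions as independent, which regions of the same gene need not be. Of the 10 at the IGF axis, Igf2r alone gave 5, Igf1r 3 and Pappa2 2. Among all merged regions 27.0% were single-end, a value inside both intervals. The split was even in the IGF axis, with 5 proximal-only and 5 distal-only regions, and 2 to 1 in the size regulators.

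Over all genes, 9.93% of promoter pairs and 38.0% of intronic pairs were single-end, and the part of class in the difference between the groups was not tested. Among regions more than 1 kb from any start site, 9 of 22 (40.9%) at the IGF axis and 3 of 12 (25.0%) at the size regulators were single-end, with 38.0% over all such regions. Counted by peak, 7 of 38 proximal member peaks (18.4%) and 6 of 37 distal ones (16.2%) were single-end, close to 16.1% and 15.0% of the whole lists.

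Flanking regions were also counted by side. Of the 8 regions in the upstream flanks, 6 were single-end (75%, Wilson interval 40.9% to 92.9%), while none of the 7 in the downstream flanks was, which allows a share of up to 35.4% by the same interval. Over all genes the shares were 20.7% and 19.8% of pairs, which include promoters of neighbouring genes. All 8 upstream regions lay more than 1 kb from any start site, where 38.0% of all regions were single-end. The 6 single-end ones came from Igf1r, Igf2r, Igf2bp2 and Plag1, and the 2 of Igf2r lay 1218 bp apart. The interval treats regions as independent, which regions of the same gene need not be, so it is no test of a difference from 38.0%. Of the 7 downstream regions, 3 lay within 1 kb of the start sites of Senp2, Bves and Mos.

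By gene, 6 of the 10 members had a single-end region in the window, 3 in each group, against 44.3% of all genes. The windows of Igf1r and Pappa2 are long, 381 and 369 kb, which gives them more room for any region. Density per 100 kb takes that into account. It was highest at Plag1 (4.37) and Igf2r (4.27), above 84.8% and 84.1% of all genes, and then 2.45 at Igf2bp2, 2.44 at Pappa2 and 2.32 at Hmga2. It fell below the median of all genes (2.07) at Igf1r (1.84), Lin28b (1.43) and Igfbp5 (0.855), and was 0 at both ligands. Neighbouring values in this order differ by less than 1 region in the window for Plag1 and Igf2r, and for Igf2bp2, Pappa2 and Hmga2.

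**Figure D3:**
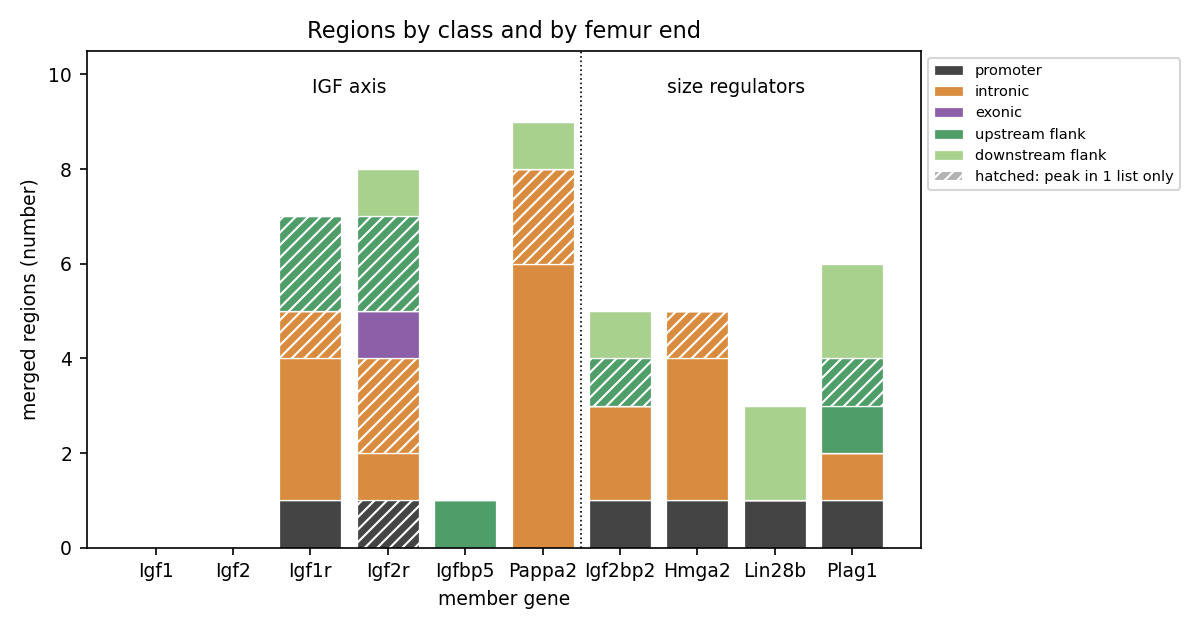
Stacked bars count the merged regions of each member by class, with hatching for regions that have a peak in 1 list only. The size regulators each have an unhatched promoter region, and hatched upstream flanks appear at Igf1r, Igf2r, Igf2bp2 and Plag1.

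**Figure D4:**
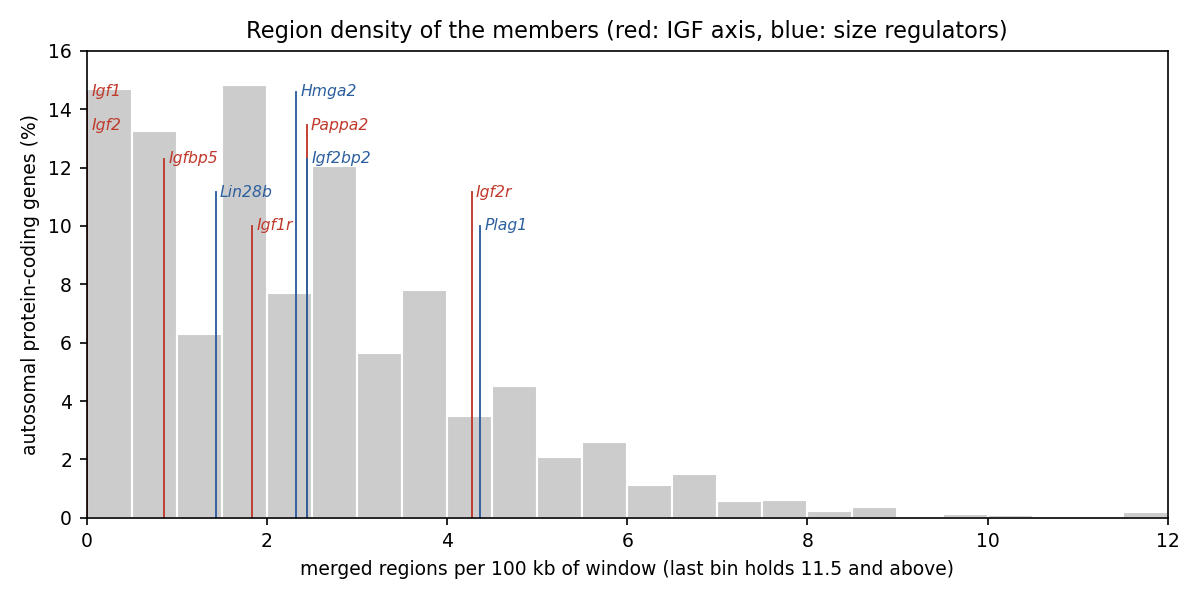
Grey bars give the share of 20807 autosomal protein-coding genes by the number of merged regions per 100 kb of window, and lines mark the members (red, IGF axis; blue, size regulators). Igf1 and Igf2 are at 0, and Igf2r and Plag1 are farthest to the right, at 4.27 and 4.37.

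Widths were close between the ends for shared regions. In the 31 shared regions the overlap of the 2 peaks covered a median of 87.9% of the region (54.2% to 99.2%), against 88.7% over all shared regions with 1 peak per list. The proximal peak was the wider one in 19 regions and the distal peak in 12, a split near that of all 23450 such regions (13383 and 9942). Median widths of member peaks were 626 bp in the proximal and 655 bp in the distal list, below the list medians of 711 and 691 bp. Single-end member peaks had medians of 399 bp (proximal, n = 7) and 540.5 bp (distal, n = 6), where the lists had 510 and 497 bp.

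**Figure D5:**
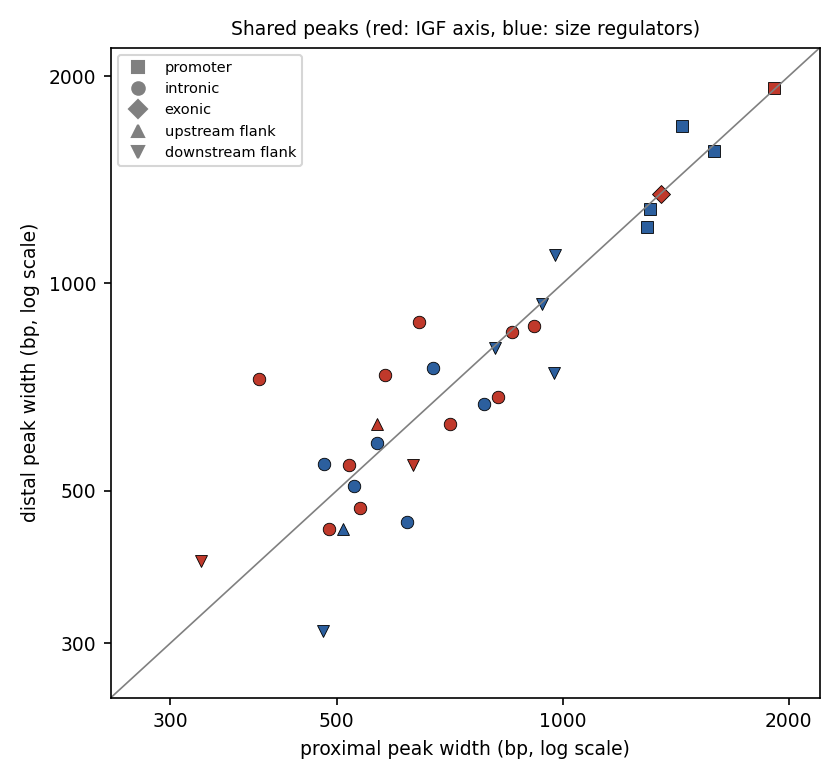
Each point is 1 of the 31 shared regions of the members, with the width of its proximal peak against that of its distal peak in bp on log axes, shaped by class and coloured by group. Promoter regions lie at the upper right from 1206 to 1926 bp, and the point farthest above the diagonal is the region at the start of Airn (394 against 727 bp).

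Motif letters were counted on both strands. Each motif was searched only by the letters given here, so sites in other forms were not counted. The AP-1 motif was searched as TGANTCA, RUNX as TGTGGT, SOX as AACAAT, TEAD as GGAATG and CTCF as CNAGGNGGC. The ETS motif was searched as CCGGAAG, NF-Y as CCAAT, SP/KLF as GGGCGG and the TATA box by the letters TATAAA. AP-1 is the dimer of Fos and Jun proteins, and its search letters, with any middle base, were the most frequent in the 34 member regions more than 1 kb from any start site. These letters were present in 20 of them (58.8%, Wilson interval 42.2% to 73.6%), near the 55.1% of all 18614 such regions. Counts were not split by middle base. Among these 34, the letters occurred in 15 of 22 shared and 5 of 12 single-end regions, in 12 of 22 of the IGF axis and in 8 of 12 of the size regulators. CTCF letters were found in 20.6% against 12.0% of all such regions, SOX in 26.5% against 19.4%, RUNX in 38.2% against 41.5%, TEAD in 23.5% against 35.0%, NF-Y in 47.1% against 54.1%, SP/KLF in 17.6% against 16.3%, TATA in 32.4% against 30.6% and ETS in 5.88% against 3.89%. One region had an AP-1 match overlapping a RUNX match, and 1 a TEAD match overlapping an NF-Y match.

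Matches to the AP-1 letters in shared regions away from promoters are shown for Pappa2, Hmga2 and Igfbp5, as examples of the intronic and flanking regions of these genes. Shared regions of other members with a match, such as both intronic regions of Igf2bp2, and regions without one are not printed. Each line gives the 47 bases around the match closest to the centre of the region, on the strand of the gene, with the match in capitals.
Igfbp5 upstream flank, chr1:72885940-72885986: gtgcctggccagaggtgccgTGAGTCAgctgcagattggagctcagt
Pappa2 intron, chr1:158748537-158748583: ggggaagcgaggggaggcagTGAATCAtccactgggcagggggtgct
Pappa2 intron, chr1:158853379-158853425: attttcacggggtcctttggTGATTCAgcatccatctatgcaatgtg
Pappa2 intron, chr1:158897486-158897532: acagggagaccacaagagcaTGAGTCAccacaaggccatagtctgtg
Pappa2 intron, chr1:158917260-158917306: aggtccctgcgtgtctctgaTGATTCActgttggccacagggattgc
Pappa2 intron, chr1:158948263-158948309: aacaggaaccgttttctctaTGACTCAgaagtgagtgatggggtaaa
Hmga2 intron, chr10:120394930-120394976: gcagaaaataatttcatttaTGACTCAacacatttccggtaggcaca
Hmga2 intron, chr10:120400016-120400062: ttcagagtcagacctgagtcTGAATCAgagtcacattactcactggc
Hmga2 intron, chr10:120422185-120422231: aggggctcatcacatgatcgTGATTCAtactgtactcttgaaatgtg
The search letters allow any middle base, and on the strand of the gene each of the 4 bases was seen there. TGANTCA reads the same on both strands, so G and C there are the same site read on opposite strands, as are A and T. Of the 6 shared intronic regions of Pappa2, 5 held a match, and so did all 3 of Hmga2. In member regions with a match, the one closest to the centre lay a median of 47.8 bp from it (n = 20), against 62.5 bp over all such regions. A match is a description of letters and not a bound site.

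Other genes of the same pathways gave a setting for the members. Of 20 further genes of the IGF axis, 11 had a promoter peak in each end and none lacked a region within 50 kb. Over all genes, 56.4% had a proximal and 57.7% a distal promoter peak, and 13.6% lacked a region. The binding protein genes Igfbp1, Igfbp2, Igfbp3, Igfbp4 and Igfbp6 had no promoter peak, like Igfbp5, while Igfbp7 had one in both ends and 10 regions. Pappa, the paralogue of Pappa2, likewise had no promoter peak, with 5 shared and 2 proximal-only regions. The insulin receptor gene Insr, the adaptor genes Irs1, Irs2 and Grb10, the growth hormone receptor gene Ghr and the kinase gene Jak2 had promoter peaks in both ends.

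Single-end regions made up 20 of the 75 regions of these genes (26.7%), near the 27.0% of all merged regions. Each region was counted once for every gene, since Igfbp1 and Igfbp3 share 2 regions and Stat5a and Stat5b share 1. Single-end regions were present at 12 of the 20 genes, against 44.3% of all genes. Irs1, Grb10 and Jak2 had them of both kinds. Igfbp1, Igfbp3, Igfbp7, Igfals, Pappa and Ghr had proximal-only regions, and Igfbp6, Irs2 and Htra1 distal-only ones.

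Of 14 further size regulators, 11 had a proximal and 12 a distal promoter peak, against 56.4% and 57.7% of all genes. The difference was Dlk1, an imprinted Notch ligand-like gene with 2 distal-only regions. Among the paralogues of the members, Igf2bp3, Hmga1, Plagl1 and Plagl2 had promoter peaks in both ends, and Igf2bp1 and Lin28a in neither. Single-end regions were 12 of 53 (22.6%), with 1 region counted for both Ncapg and Lcorl, against 27.0% of all merged regions. They were present at 8 of the 14 genes, against 44.3% of all genes. Plagl2, Dis3l2 and Zbtb38 had both kinds, and Igf2bp3, Plagl1, Cdkn1c, Dlk1 and Mest had distal-only regions.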

How the data were processed

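The deposited files are 2 lists of peak positions, 1 per femur end, which the authors made from ATAC-seq reads. Reads were aligned to mm10 with Bowtie2 (version 2.2.8 in the submitters' processing notes), peaks were called with MACS2 (2.1.1 in the same notes), and peaks reproducible between 2 replicates at an irreproducible discovery rate under 0.05 were kept. The depth behind a peak is not in the lists. Listed starts were raised by 1 to give 1-based positions. These were compared with GENCODE release 21 (mm10) using Python 3.11.15, pandas 2.3.3, NumPy 2.4.6 and SciPy 1.17.1. Sequence came from GRCm38.p6, the same chromosome sequences, read with pysam 0.24.0, and figures were drawn with matplotlib 3.10.9. No peak extended past a chromosome end. Regions were classed for each gene as promoter (edge within 1 kb of any annotated start site), exonic, intronic or flanking. Overlap, class and motif functions were tested on simulated data. With 1 list per end no test was made, and shares have 95% Wilson intervals. The members and gene lists were chosen with earlier results of these data known. All 10 members were named, with pathway genes that had a single-end region or no region, and genes whose start lies in a member's window. Other pathway genes named for their promoter peaks were chosen after their values were seen. Alternatives changed the window, overlap, promoter distance, transcript set, peak width and motif window. Reads were not analysed here. Results for some further items are not reported here.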

Additional observations from a re-analysis of the deposited data

How the results depend on the processing

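Of 70 values recomputed under an alternative, 43 stayed within the limits set for them and 27 moved. A shorter promoter distance left promoter peaks at 6 members (proximal) and 5 (distal), and a limit of 3 kb gave 7 and 5. With a window of 100 kb, the members had 58 distal peaks, 12 of them single-end, the size regulators had 31 regions with 7 single-end, and 0 members lacked a peak, since regions near Igf1 and Igf2 then came in. With the gene body alone, 25 proximal and 24 distal peaks remained, 4 and 3 of them single-end, with 6 single-end regions at the IGF axis and 11 regions, 1 single-end, at the size regulators. Keeping regions whose nearest protein-coding start is that of the member left 12 regions at the size regulators. Peaks at least as wide as their list's median left 14 proximal peaks (2 single-end) and 16 distal peaks, 8 regions of the IGF axis (4 single-end) and 10 of the size regulators. The single-end share was higher at the IGF axis than at the size regulators in each of these settings and with a window of 20 kb (8 of 21 regions against 2 of 13). The settings draw largely on the same regions, so these results are not independent of each other and add no separate support. AP-1 letters in the central 200 bp were found in 41.2% of member regions more than 1 kb from a start, against 58.8% in whole regions, and shares of 7 of the other 8 motifs fell outside their interval as well, as a shorter sequence gives. Other definitions of overlap changed no single-end count. No paired analysis was possible because each list combines its replicates, and leaving out a replicate was not possible for the same reason. Depth limits what the absence of a peak can say, and the lists do not give it.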
